A study of Homo sapiens with 9 samples.

Results

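The plasminogen activator system was described from 5 listed genes: the urokinase gene PLAU, its receptor gene PLAUR, the tissue activator gene PLAT, and the serpin genes SERPINE2 and SERPINB2. All probe sets annotated to a listed gene were taken, and each gene was represented by its brightest probe set, averaged over all arrays. Of the 5 genes, 4 were matched, with 21 probe sets, among 18132 genes in all. SERPINB2 was not analysed here.

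Urokinase (PLAU) and tissue-type plasminogen activator (PLAT) are secreted serine proteases that cut plasminogen into plasmin, a broad protease that degrades fibrin and extracellular matrix. The urokinase receptor (PLAUR) holds urokinase at the cell surface through a glycolipid anchor, and serpins such as SERPINE2, also called protease nexin-1, trap the activators in inactive complexes that are taken up by endocytic receptors. In breast cancer the system is known for its part in invasion, and invasive lines such as MDA-MB231 are known to express urokinase and its receptor.

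RNA was measured on 9 Affymetrix PrimeView arrays, one for each culture of MDA-MB231, an established human triple-negative breast cancer line. The control group was 4 cultures with 0.1% DMSO, the solvent. Another group was 2 cultures with 10 µM BB94 (batimastat), an inhibitor of metalloproteinases, and the last was 3 cultures with 3 µM PD325901, an inhibitor of the kinases MEK1 and MEK2, which sit above ERK in the MAP kinase cascade. All cultures were lysed 24 h after treatment, and the labels call them biological replicates. The study compared the transcriptional effects of the inhibitors at 1 dose and 1 time in 1 line.

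Values are log2 RMA intensities, and the number of arrays limits their precision. The array medians lay between 6.05 and 6.34. The arrays with PD325901 stood apart from the others on the first principal component, which held 73.3% of the variance, and the controls spread along the second, which held 10.2%. The array-specific background level was taken as the brightest of 23 background control probe sets and lay between 6.02 and 6.50. All 5 markers expected of this line (VIM, CD44, AXL, MSN and SPARC) were above background on every array. Of 6 genes that the line is known to express weakly or not at all, ESR1, PGR and CDH1 were at or below background on all 9 arrays, while ERBB2, EPCAM and GATA3 were above it. The summed level of these 6 genes, as log2, was 10.15 to 10.31 in controls, 10.02 to 10.23 with BB94 and 10.58 to 10.76 with PD325901. Leukocyte, endothelial and fibroblast markers were above background on no array for 4 of 5, 4 of 4 and 4 of 6 genes. As a sign of RNA quality, the 3′ minus 5′ log2 value of the ACTB controls was 2.96 to 3.89 on control arrays, 3.91 to 4.22 with BB94 and 3.50 to 4.15 with PD325901. Both BB94 arrays lay above every control in it, and its part in the BB94 results was not tested. The MEK pathway feedback genes served as a check of the MEK inhibitor. DUSP6, an ERK phosphatase, had levels of 13.34, 13.52, 13.36 and 13.24 in controls and of 11.04, 8.99 and 8.02 with PD325901. SPRY4, a feedback inhibitor of receptor signalling, fell from a mean of 11.21 to 5.78 and was above background on 1 of the 3 PD325901 arrays. Its other two probe sets were called with PD325901, 1 lower and 1 higher, and lay at or below background on all control and PD325901 arrays. In such bulk cultures, fewer cells that express a gene and less of its RNA per cell cannot be told apart.

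PLAUR was lower with PD325901, PLAU was lower with both inhibitors, PLAT was higher with BB94, and SERPINE2 was called in no comparison on the deposited values. Against control, 2 of the 4 genes were called lower with PD325901 and none higher. Called means a Benjamini-Hochberg adjusted p under 0.05 over all genes by limma. Among all genes tested, 35.1% were called in that comparison and 12.3% were called lower. With BB94, 1 of the 4 genes was called lower and 1 higher, where 1.58% of all genes were called either way, 1.09% lower and 0.491% higher. Between the inhibitors, 3 of the 4 genes were called, against 31.2% of all genes. Arrays of the groups did not overlap for 2 of the 4 genes with PD325901 against control, for 3 with BB94 against control and for all 4 between the inhibitors, beside 40.4%, 17.3% and 60.8% of all genes. The share of calls that were higher depended on scaling: it was 65.1% with PD325901 and 31.1% with BB94 on the deposited values, and 31.7% and 45.3% after each array was centred on its median over genes. The median change over all genes was 0.08 with PD325901 and −0.02 with BB94 on the log2 scale, and centring moved the former to −0.17. Both inhibitor comparisons share the 4 control arrays. For BB94 against control, 312 genes were called with controls 1 and 2 alone and 1633 with controls 3 and 4 alone.

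The sequences just upstream of PLAUR and PLAU are shown because both genes were lower with PD325901 and because AP-1 and ETS factors, classes of transcription factor that include targets of ERK signalling, are known to act on these genes. RefSeq promoter windows of build GRCh38.p14 were found for 4 of the 5 listed genes. Each printed window holds the 250 bases before the annotated start, 5′ to 3′ on the gene's own strand. For PLAUR the window is chr19:43670170-43670419 on the minus strand, and for PLAU it is chr10:73910882-73911131 on the plus strand. Capitals mark matches to an AP-1 motif (TGANTCA) or to an ETS motif (AGGAAG, read as CTTCCT on the other strand).
PLAUR: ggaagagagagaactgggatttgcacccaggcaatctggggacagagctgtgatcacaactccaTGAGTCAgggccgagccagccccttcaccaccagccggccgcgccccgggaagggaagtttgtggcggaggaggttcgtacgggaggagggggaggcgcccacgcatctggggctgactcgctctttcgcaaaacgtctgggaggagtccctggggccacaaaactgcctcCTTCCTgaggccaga
PLAU: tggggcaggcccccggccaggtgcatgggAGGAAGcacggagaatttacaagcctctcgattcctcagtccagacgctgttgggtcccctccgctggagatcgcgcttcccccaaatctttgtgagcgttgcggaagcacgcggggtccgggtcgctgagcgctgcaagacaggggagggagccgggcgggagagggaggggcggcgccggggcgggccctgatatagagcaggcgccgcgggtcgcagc
The PLAUR window held 1 AP-1 match, TGAGTCA, from −186 to −180 counted from the start, and 1 ETS match from −15 to −10. The printed PLAU window held 1 ETS match from −221 to −216 and no AP-1 match. A second PLAU window and both SERPINE2 windows held no match to these motifs, nor to the ETS motif CCGGAAG or the TATA box (TATAAA). Both strands were searched. Of 35116 RefSeq promoter windows of this length, 6.57% held TGANTCA, 28.7% held AGGAAG, 8.52% held CCGGAAG and 10.7% held TATAAA. A match describes letters in the window and was not tested as a site, and the known enhancer of PLAU lies farther upstream, outside the window.

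PLAU encodes urokinase, the activator that acts mainly at the cell surface. Its probe set (11717886_a_at) read 11.25, 11.31, 11.36 and 11.26 in the controls, 10.77 and 10.58 with BB94, and 11.01, 11.02 and 10.94 with PD325901. The 3 groups did not overlap: controls were highest, PD325901 was between, and BB94 was lowest. The means were 11.29 ± 0.05 (SD, n = 4), 10.67 ± 0.14 (SD, n = 2) and 10.99 ± 0.04 (SD, n = 3). With BB94, PLAU fell by 0.62 on the log2 scale (SE 0.09, 1.54-fold lower, limma adjusted p = 0.00642). With PD325901 it fell by 0.30 (SE 0.08, 1.23-fold lower, limma adjusted p = 0.0119). The direct difference between the inhibitors was 0.32 (SE 0.09, limma adjusted p = 0.0254), with PLAU higher with PD325901. Genes called lower with both inhibitors made up 0.436% of all genes, 79 in number.

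The other PLAU probe sets moved the same way, and all 3 were called lower with each inhibitor. The 2 brighter ones had log2 changes of −0.62 and −0.87 with BB94 and of −0.30 and −0.40 with PD325901. The dimmest (11754119_a_at) was above background on 2 of the 4 control arrays and on none with either inhibitor, so no size is given for it. The BB94 call on PLAU held without BB94 replicate 1 (−0.72, adjusted p = 0.0291) and was lost without BB94 replicate 2 (−0.52, adjusted p = 0.141), in a range of 7.5e-04 to 0.141 over the alternatives. Without PD325901 replicate 3, the adjusted p of the PD325901 change was 0.0536, in a range of 1.9e-04 to 0.0536, and the direct difference between the inhibitors was -0.0082 after centring on gene medians (adjusted p = 0.952, in a range of 0.00537 to 0.952).

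**Figure D1:**
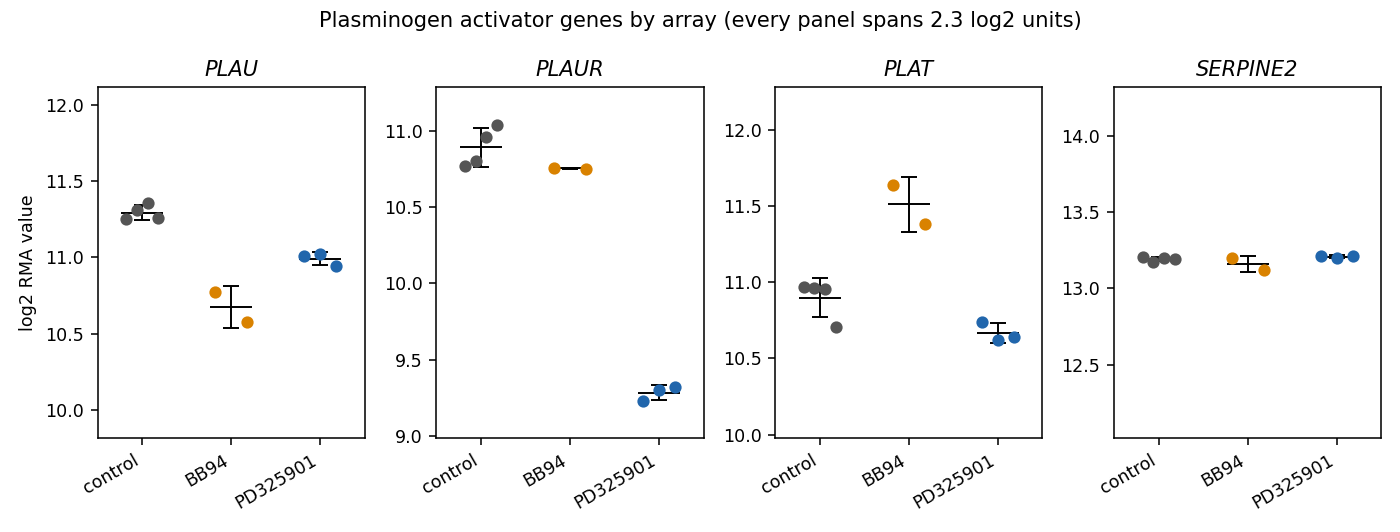
Log2 RMA intensity of the probe set that stands for each of PLAU, PLAUR, PLAT and SERPINE2, by treatment group, with 1 point for each of 9 arrays and the group mean with its SD. PLAUR separates the PD325901 arrays (9.23 to 9.32) from the others (10.75 to 11.04), PLAU is lowest with BB94, PLAT is highest with BB94, and SERPINE2 stays between 13.12 and 13.21.

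PLAT encodes the tissue-type activator, which is known chiefly for dissolving fibrin clots. It moved in the opposite direction to PLAU with BB94. Its probe set (11732321_a_at) read 10.97, 10.96, 10.95 and 10.70 in the controls, 11.64 and 11.38 with BB94, and 10.74, 10.62 and 10.64 with PD325901. Both BB94 arrays lay above every other array, and the PD325901 arrays overlapped the lowest control. With BB94, PLAT rose by 0.61 on the log2 scale (SE 0.11, 1.53-fold, limma adjusted p = 0.0238), the 88th highest change of 18132 genes. With PD325901 the difference was −0.23 (SE 0.10, 95% interval −0.45 to −0.01) and was not called (limma adjusted p = 0.0972). The direct difference between the inhibitors was −0.84 (SE 0.12, limma adjusted p = 2.8e-04), lower with PD325901.

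Of the 7 PLAT probe sets, 5 were called higher with BB94, with log2 changes from 0.61 to 0.76, and none lower, and on 6 of the 7 both BB94 arrays lay above all controls. In all genes, every BB94 array lay above every control for 6.35%. With PD325901, 5 of the 7 were called lower, with changes from −0.50 to −0.34. The brightest, which stood for the gene, was not called, nor was the dimmest (11753829_a_at), which was above background on none of the PD325901 arrays. The mean of the 7 probe sets gave −0.41 for the gene (limma adjusted p = 0.00746, in a range of 0.00117 to 0.254 over the alternatives), so the PD325901 call on PLAT changed with the choice of probe set. All 7 were called lower with PD325901 than with BB94, by log2 differences from −1.19 to −0.84 on the 6 brighter ones and at least 1.85-fold on the dimmest. The BB94 call on PLAT was lost when either BB94 replicate was left out: the change was 0.48 without replicate 1 (adjusted p = 0.234) and 0.74 without replicate 2 (adjusted p = 0.0794). It was also lost without PD325901 replicate 2 or 3 (adjusted p = 0.0511 and 0.0504) and with controls 1 and 2 alone (0.0501), in a range of 0.00258 to 0.234.

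PLAUR, the urokinase receptor, had the largest change of the 4 genes and changed with PD325901 alone among the tests against control. The probe set (11738053_x_at) read 10.77, 10.80, 10.96 and 11.04 in the controls, 10.75 and 10.75 with BB94, and 9.23, 9.30 and 9.32 with PD325901. The highest PD325901 array lay 1.43 log2 units under the lowest of the other arrays, and the 3 PD325901 arrays were close to each other. The means were 10.89 ± 0.13 (SD, n = 4) in controls and 9.28 ± 0.05 (SD, n = 3) with PD325901. PLAUR fell by 1.61 on the log2 scale (SE 0.09, 3.05-fold lower, limma adjusted p = 2.8e-07), the 153rd lowest change of 18132 genes. With BB94 the difference was −0.14 (95% interval −0.36 to 0.08, limma adjusted p = 0.725). Both BB94 arrays lay just under the lowest control, an ordering found for 11.0% of all genes. Against BB94, PLAUR was lower with PD325901 by a log2 difference of −1.47 (SE 0.10, 2.77-fold, limma adjusted p = 2.8e-06).

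All 5 PLAUR probe sets were called lower with PD325901, with log2 changes between −1.80 and −1.61, and none was called with BB94, where they ran from −0.31 to −0.14. The probe set without a suffix for shared probes or transcripts (11742819_at) read 9.60, 9.70, 9.77 and 10.18 in the controls, 9.67 and 9.60 with BB94, and 7.94, 8.09 and 8.02 with PD325901. Its change with PD325901 was −1.80. PLAUR kept its PD325901 call and direction under all 21 alternative settings, with changes from −1.86 to −1.50.

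SERPINE2, the serpin protease nexin-1, inhibits urokinase, tissue-type activator and thrombin. Its probe set (11758598_s_at) was bright and hardly varied: 13.21, 13.17, 13.20 and 13.19 in the controls, 13.20 and 13.12 with BB94, and 13.21, 13.20 and 13.21 with PD325901. The control arrays overlapped both other groups, and the PD325901 arrays lay just above both BB94 arrays. The difference from control was 0.02 with PD325901 (95% interval −0.14 to 0.17, limma adjusted p = 0.891) and −0.03 with BB94 (95% interval −0.21 to 0.14, limma adjusted p = 0.956). After arrays were centred on their medians over genes, the differences turned sign and SERPINE2 was called lower with PD325901 against control (−0.24, adjusted p = 0.0391, in a range of 0.0391 to 0.947 over the alternatives), while the BB94 difference was 0.04. Between the inhibitors the difference was 0.05 (95% interval −0.13 to 0.23), and after the same centring it was −0.28 and was called (adjusted p = 0.0453, in a range of 0.0453 to 0.961). On the deposited values none of the 6 SERPINE2 probe sets was called in any comparison, and their changes ran from −0.06 to 0.21 with PD325901 and from −0.11 to 0.15 with BB94. The dimmer of them varied more among controls, with 8.10, 7.74, 7.54 and 7.41 on 11741678_a_at.

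**Figure D2:**
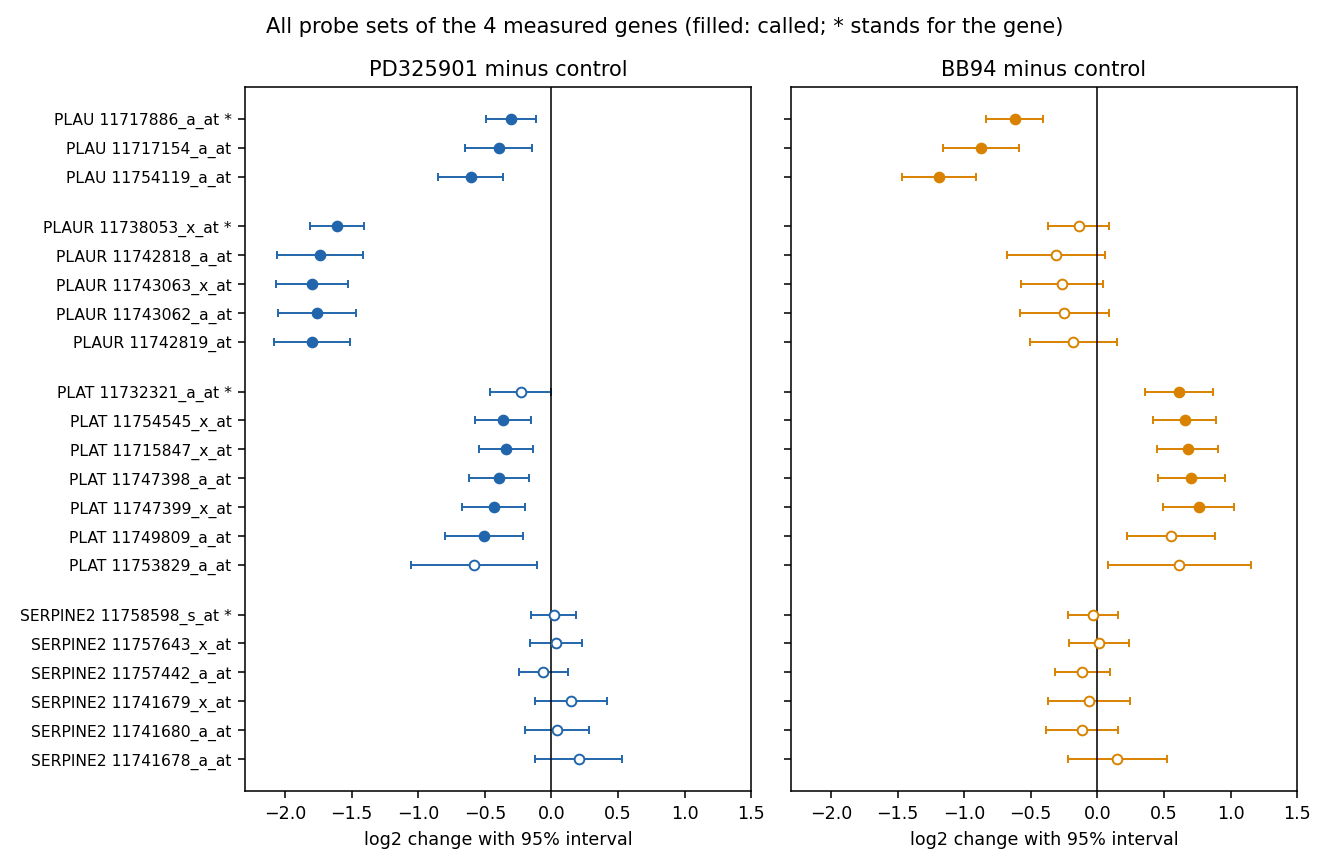
Log2 change against control for each of the 21 probe sets of PLAU, PLAUR, PLAT and SERPINE2, with its 95% interval from limma, for PD325901 and for BB94. The 5 PLAUR probe sets lie between −1.80 and −1.61 with PD325901, the 3 PLAU probe sets lie below 0 with both inhibitors, and the PLAT probe sets lie on opposite sides of 0.

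The probe sets of different genes bind with different strength, so the order of levels between genes was not read. Within each gene, the order of the group means for PLAU was control, PD325901, BB94 from highest to lowest. Each neighbouring pair differed in the limma test on the deposited values. The PLAU call between the inhibitors was lost without PD325901 replicate 1 or 2 (limma adjusted p = 0.0728 and 0.0835). It was also lost after centring on medians over genes or over probe sets (limma adjusted p = 0.952 and 0.509). For PLAT the order was BB94, control, PD325901, and the control and PD325901 neighbours did not pass the test. For PLAUR the order was control, BB94, PD325901, and the control and BB94 neighbours did not pass it. For SERPINE2 no pair passed.

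Around these genes, 61 of 63 listed genes in 9 groups were measured, and 28 of the 61 were at or below background on all arrays. With PD325901, 14 were called higher and 10 lower (39.3%, beside 35.1% of all genes), and with BB94, 1 was called higher and 1 lower (3.28%, beside 1.58%). The others were not analysed here. The lists were chosen with results of these data known, and their counts describe them. Among all 18132 genes, 4142 were called higher and 2223 lower with PD325901, and the counts of each group stand beside these. Called genes at or below background on both sides (ST14, KLKB1, LRP1, LYPD3, SERPINB4 and SERPINB7) have no interpretable size.

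Among 6 measured inhibitors of the activators or of plasmin, 3 were called higher with PD325901 and none lower. Of all 18132 genes, 4142 were called higher. The other 3 inhibitors were at or below background on all arrays. The median log2 change of 0.40 lay between the called and the uncalled genes. SERPINA5, the protein C inhibitor, which also inhibits urokinase, read 6.11, 5.97, 5.95 and 5.85 in controls, 6.75 and 6.90 with BB94, and 8.34, 8.06 and 8.16 with PD325901. Control arrays were below background, and the inhibitor arrays lay above all of them. SERPINA5 rose at least 3.94-fold with PD325901 (limma adjusted p = 7.5e-08) and at least 1.53-fold with BB94 (limma adjusted p = 0.00347); without BB94 replicate 2 the BB94 call was lost (adjusted p = 0.0794). SERPINF2, the main inhibitor of plasmin, read 6.24, 5.50, 5.80 and 5.57 in controls and 7.75, 7.15 and 7.50 with PD325901, at least 2.39-fold higher. Such bounds set the bright group's mean against the array background. SERPINI1, or neuroserpin, an inhibitor of tissue-type activator, rose by 0.77 (1.71-fold, limma adjusted p = 2.5e-05).

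Among 7 genes that encode endocytic receptors or their chaperone, 2 were called higher and 1 lower with PD325901. SORL1, a sorting receptor that binds urokinase complexes, read 8.36, 8.36, 8.39 and 8.23 in controls, 7.74 and 7.49 with BB94, and 8.83, 8.96 and 9.08 with PD325901. The 3 groups did not overlap, and the inhibitor groups lay on opposite sides of the controls. The log2 change was 0.62 with PD325901 (limma adjusted p = 3.9e-04) and −0.72 with BB94 (limma adjusted p = 0.00725), and the BB94 call was lost without BB94 replicate 2 (adjusted p = 0.164). VLDLR, another receptor of this family, fell by 0.52 with PD325901 (limma adjusted p = 8.4e-04).

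Among 11 partners of the urokinase receptor, 3 were called lower with PD325901 and none higher, beside 12.3% of all genes called lower. None was called with BB94. ITGB5, the beta subunit of a vitronectin-binding integrin, read 8.97, 8.97, 9.14 and 9.03 in controls, 9.23 and 9.08 with BB94, and 8.10, 7.95 and 7.90 with PD325901. It fell by 1.04 (2.06-fold lower, limma adjusted p = 5.5e-06), with no overlap of the PD325901 and control arrays. EGFR, a growth factor receptor that signals beside the urokinase receptor, fell by 0.54 (limma adjusted p = 3.2e-04). ITGA5, the alpha subunit of a fibronectin receptor, fell by 0.50 (limma adjusted p = 0.00269). With PD325901, 4 of 8 EGFR probe sets and 3 of 4 ITGA5 probe sets were called lower, and none higher. The median of the 11 genes was −0.06, and the other 8 were not called.

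The 4 plasminogen-binding surface proteins split. ENO1, an enolase that binds plasminogen at the surface, fell by 0.53 with PD325901 (limma adjusted p = 0.00716), and PLGRKT, a plasminogen receptor, fell by 0.46 (limma adjusted p = 0.00383). S100A10, the partner of annexin A2, rose by 0.25 (limma adjusted p = 0.0213), a change that was 0.00 after centring on gene medians. ANXA2 had a difference of 0.03 and was not called. Among the clade B serpins, the family of SERPINB2, SERPINB1 rose by 1.28 (2.42-fold, limma adjusted p = 2.0e-06) and SERPINB8 fell by 0.84 (limma adjusted p = 4.6e-04). Of 4 SERPINB8 probe sets, 3 were called lower and none higher. In the gene cluster that holds SERPINB8, 8 of the 9 measured genes were at or below background on all arrays. Of 8 other genes with the LY6/uPAR fold, LYPD6 was called higher with PD325901 by 0.42 (limma adjusted p = 0.0205) above background. Of its 2 probe sets, 1 was called higher and none lower. The LYPD6 call was lost after centring on gene medians (0.17, adjusted p = 0.346).

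**Figure D3:**
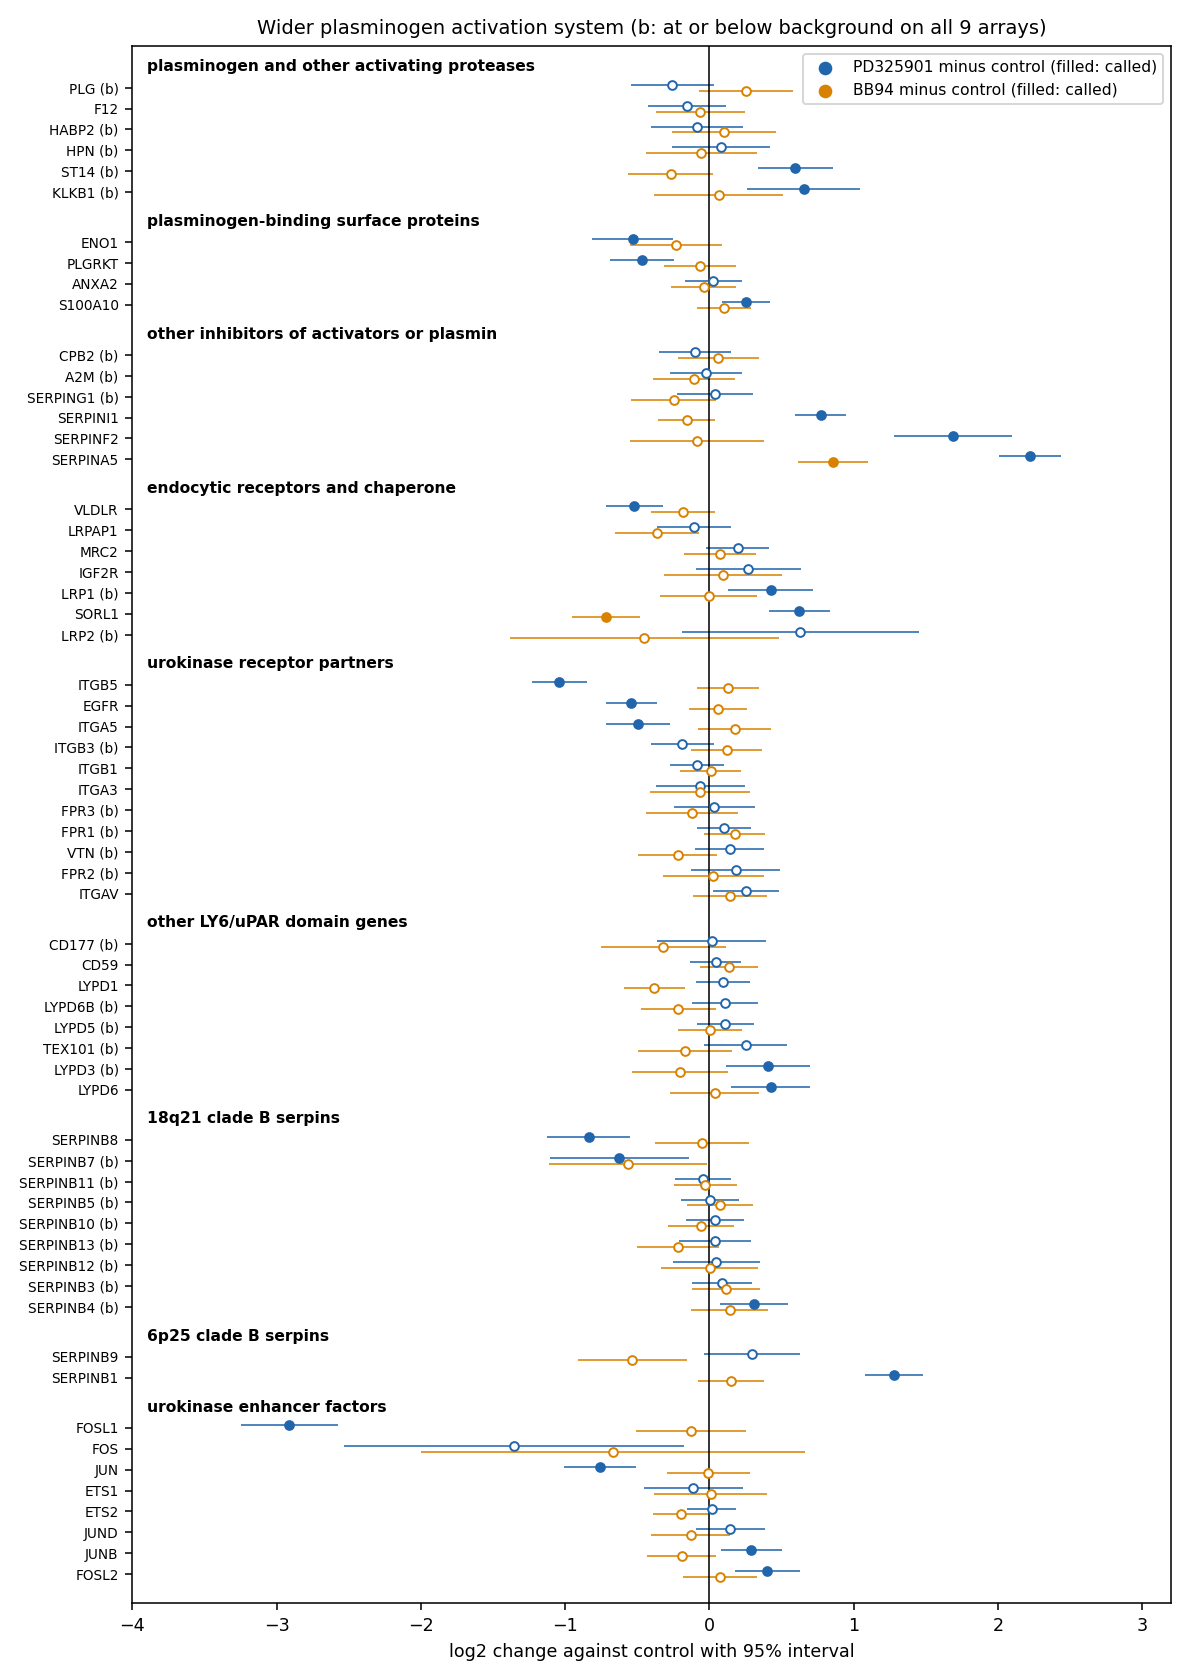
Log2 change against control with its 95% interval from limma for the 61 measured genes around the system, with PD325901 and with BB94, grouped by role; filled points are called. With PD325901, SERPINA5 (2.22) and SERPINF2 (1.69) lie farthest above 0 and FOSL1 (−2.91) farthest below, and SORL1 lies on opposite sides of 0 with the inhibitors; genes at or below background are marked in the plot.

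Of 8 transcription factors known to act on the urokinase enhancer, 2 were called lower with PD325901 and 2 higher, and none was called with BB94. FOSL1, a member of the AP-1 family, read 11.12, 11.36, 11.64 and 11.52 in controls, 11.36 and 11.21 with BB94, and 8.80, 8.46 and 8.24 with PD325901. All PD325901 arrays lay far below the others, a fall of 2.91 (SE 0.15, 7.52-fold lower, limma adjusted p = 2.4e-07). JUN, its AP-1 partner, fell by 0.76 (1.69-fold lower, limma adjusted p = 3.7e-04), from 11.65 ± 0.13 (SD, n = 4) to 10.89 ± 0.21 (SD, n = 3). FOSL2 was called higher by 0.40 (limma adjusted p = 0.00981), a call lost after centring on gene medians (0.15, adjusted p = 0.312). Of 5 FOSL2 probe sets, 3 were called higher and none lower. JUNB was called higher near background. FOS varied widely, with 8.49, 9.69, 9.34 and 9.05 in controls and 6.54, 8.17 and 8.66 with PD325901, and was not called (limma adjusted p = 0.0736). ETS1 and ETS2 had differences of −0.11 and 0.01 and were not called.

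**Figure D4:**
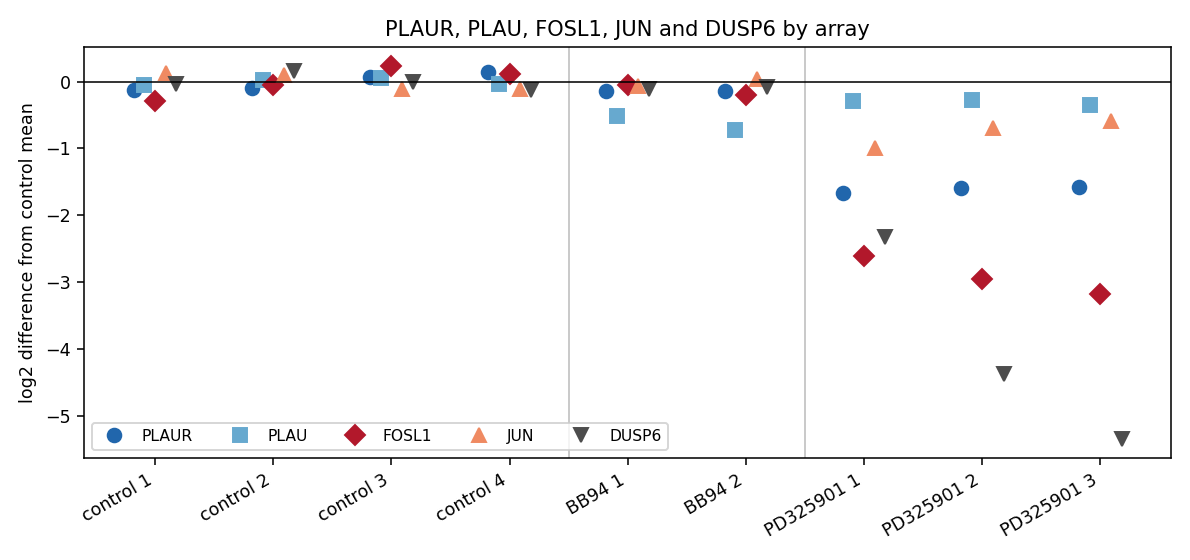
Log2 difference of each of the 9 arrays from the control mean for PLAUR, PLAU, FOSL1, JUN and DUSP6, with 1 point per array. The PD325901 arrays spread widely for DUSP6 (levels of 11.04, 8.99 and 8.02) and narrowly for PLAUR (9.23, 9.30 and 9.32).

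The level of DUSP6 ranged over 3.02 log2 units among the PD325901 arrays, while PLAUR ranged over 0.09 and PLAU over 0.08 there. Genes with a pattern like that of each member were sought among 3479 genes whose values ranged over at least 1 log2 unit, by Pearson's r over the 9 arrays. These r values describe arrays that share the 3 treatments and the normalization. For PLAUR the closest were E2F2 (r = 0.998), GINS2 (0.997) and FAM111A (0.996), and their log2 changes with PD325901 were −1.13, −2.31 and −1.24. For PLAU they were TENT5C (0.962), TFF1 (0.954) and ANXA10 (0.947), and for PLAT they were ADAMTS9 (0.972), DSEL (0.965) and ITGA10 (0.962). TFF1 was at or below background on all 9 arrays. ANXA10 changed by −0.90 with PD325901. It was also lower with BB94, where both arrays (5.69 and 5.89) were below background, so no size is given. ADAMTS9 changed by 1.40 with BB94 and −0.61 with PD325901. SERPINE2 ranged over only 0.09 on the log2 scale. The genes closest to it, ZNF385A (0.965), WDPCP (0.964) and PHYHIP (0.923), were called in neither inhibitor comparison. WDPCP and PHYHIP were at or below background on all 9 arrays.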

How the data were processed

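RNA from 9 cultures was measured on PrimeView arrays. Per the series design text, the authors preprocessed the arrays with the affy package and RMA, and the deposited values are on a log2 scale. RMA fits each probe set over all arrays together, so values are relative within these 9 arrays, and the settings of the fit were not stated in the sources used here. The value table of 49395 probe sets was used as deposited. After leaving out control probe sets, 44988 carried 1 gene symbol in the platform annotation (1832 several, 2473 none), and 44961 of these matched a RefSeq gene. Each of 18132 genes was represented by its brightest probe set, averaged over all arrays.

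Group means were fitted with limma 3.58.1 in R 4.3.3 over all 9 arrays with 6 residual degrees of freedom and empirical Bayes moderation, and p-values were adjusted by Benjamini-Hochberg over all genes (for single probe sets, over all probe sets). The scripts were tested on simulated data. A bound ("at least") sets the bright group's mean against the array background. The named genes were all members, the called genes of each list up to 4 by size of change, the 3 genes most like each member, DUSP6 and SPRY4. Outside this rule, FOS, ETS1, ETS2, ANXA2 and the markers are named as well. The members and lists were chosen with earlier results of these data known. Alternatives covered other probe set rules, filters, centring, array weights, samples in the fit, a replicate block and leaving out each array. Pairs of arrays shared between 387 and 1088 exactly equal values, so no array was a copy of another. Some listed genes are not reported here.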

Additional observations from a re-analysis of the deposited data

Results flagged for a closer look

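In the 4 control arrays, Dixon's ratio was computed for 45 probe sets of the members and named genes, and 4 had a control array far from the others; chance flags about 1 in 20 groups. For PLAT (11732321_a_at) the lowest control array, replicate 4, read 10.7038, and the next read 10.95. On another PLAT probe set (11749809_a_at) control replicate 3 was highest at 8.46474, with the next at 7.99. On 1 SERPINE2 probe set (11757442_a_at) control replicate 3 was lowest at 9.30599, with the next at 9.44. For EGFR control replicate 3 was highest at 10.4751, with the next at 10.37. Without control replicate 4, the PLAT difference between PD325901 and control was −0.30 (limma adjusted p = 0.0282).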

How the results depend on the processing

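The PLAUR differences of PD325901 from control and from BB94, and the PLAT difference between the inhibitors, kept their direction and call under all 21 alternatives. Of 42 results on named genes outside the members, 25 kept direction and call throughout and 17 lost a call at least once; none reversed. With all 44988 probe sets tested, 13445 were called for PD325901 against control, 697 for BB94 and 11841 between the inhibitors. For BB94 against control, 469 genes were called with array weights, 140 with only those groups in the fit, 161 with the replicate block, 1633 with controls 3 and 4 alone and 62 to 367 with 1 array left out. Centring on the median over genes turned the split of PD325901 calls from 4142 higher and 2223 lower to 2353 and 5076, and called all 4 members. With 1 array left out, 1 to 3 members were called with PD325901 and 0 to 2 with BB94; with only those groups in the fit, or with controls 1 and 2 alone, 1 was called with BB94.

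The PLAT change with PD325901 passed the threshold with the mean of its probe sets (−0.41), array weights (−0.29), centring on genes (−0.49) or on probe sets (−0.33) and controls 1 and 2 alone (−0.30), and ran from −0.30 to −0.21 with 1 array left out. The PLAT change with BB94 missed it with only those groups (0.61) and with controls 1 and 2 alone (0.54), and ran from 0.48 to 0.74 with 1 array left out. With 1 array left out, the PLAU change ran from −0.32 to −0.28 with PD325901, from −0.72 to −0.52 with BB94 and from 0.22 to 0.42 between the inhibitors. That last difference was −0.0082 after centring on genes and 0.10 on probe sets. SERPINE2 turned sign after centring on genes (−0.24 with PD325901, 0.040 with BB94, −0.28 between them), where the first and last were called, and on probe sets (−0.086, 0.079 and −0.17), and ran from −0.070 to 0.0042 with BB94 when 1 array was left out. Where a BB94 array was left out, the lone array was assumed to vary like the other groups. Why the calls differed between these settings was not tested.

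The deviations of the 7 same-numbered pairs from their group means correlated from −0.19 to 0.12. None of the arrays (0 of 8) correlated best with their own number. With 2 BB94 arrays, the deviations are mirror images, so these values depend on each other. The check therefore does not decide whether replicate numbers pair the arrays. With the replicate block, 0 members were called with BB94 (PLAU −0.63, adjusted p = 0.0548; PLAT 0.54, adjusted p = 0.0784), the PLAT change with PD325901 was −0.30 (adjusted p = 0.0351) and the PLAU difference between the inhibitors was 0.32 (adjusted p = 0.0611). The BB94 group holds 2 arrays. Probe sets at or below background give no size of change.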
